A study of Mus musculus with 6 samples.

Results

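Constitutive open regions inside gene bodies are stretches of chromatin that were open in every library of the series, lay within a protein-coding gene and stayed clear of its ends. Peaks of the 6 libraries on chromosomes 1 to 19, X and Y that overlapped by at least 1 base were merged into 85174 regions. Of these, 20742 held a peak from all 6 libraries. A region was kept when its midpoint lay inside a protein-coding gene of RefSeq (mouse assembly GRCm38.p6, the assembly of build mm10) and when it touched no window of 1000 bases on either side of a protein-coding gene's start or end. The rule left 7349 regions, against 7004 constitutive regions at gene ends and 6389 between genes. The regions were thus chosen by the presence of a called peak in each library, which is not a result. Exons and introns were not told apart.

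The assay was ATAC-seq, in which the transposase Tn5 cuts and tags accessible DNA, on primary mouse vascular smooth muscle cells bought from a supplier. There were 3 libraries of cells given a negative control and 3 of cells transfected with siRNA against Arid3a, which encodes a DNA-binding protein with an AT-rich interaction domain. Transfection lasted 24 h, and 50000 cells per assay were then exposed to Tn5 for 30 min. The labels give each knockdown library its own siRNA number, so differences between siRNAs and between libraries cannot be told apart in that group. The labels do not state whether replicate libraries stem from separate cultures. A p-value here therefore reflects only how much these libraries vary, which may be technical. The labels describe treatment with angiotensin II without naming the libraries that received it. An open region is no measure of the siRNA's effect on Arid3a RNA or protein, so the knockdown itself was not checked here.

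Accessible DNA inside genes commonly marks enhancers, which bind transcription factors and can act on the host gene or on a neighbour, and alternative promoters, from which shorter transcripts start. In smooth muscle cells, serum response factor binds the CArG box of contractile genes together with myocardin-related cofactors. TEAD factors, AP-1 and the SMAD proteins downstream of TGF-beta also act through such distal elements, many of which lie in introns.

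The regions that coincide with an annotated start inside their gene are the ones whose sequence is held in the RefSeq promoter table (GRCm38.p6), which gives the bases around each annotated start. That table held 4050 starts lying more than 1000 bases from both ends of their protein-coding gene, in 3040 genes. The 300-base window of 728 of them, in 616 genes, overlapped 626 of the 7349 regions. The 8 runs below are the 250 bases before such a start, read 5′ to 3′ on the strand of the gene, and were chosen with the values known to show regions of high and ordinary fold in genes of this tissue. Capitals mark letters searched on both strands: TGAGTCA for AP-1, CATTCC for TEAD, the CArG box, CCAAT, and ATTAAA, letters of the AT-rich sequence that Arid3a is known to bind. A match is a match of letters and not a shown binding site. Motifs could in principle share bases, but the marked ones here do not.
Rfx1, chr8:84066586-84066835, plus strand: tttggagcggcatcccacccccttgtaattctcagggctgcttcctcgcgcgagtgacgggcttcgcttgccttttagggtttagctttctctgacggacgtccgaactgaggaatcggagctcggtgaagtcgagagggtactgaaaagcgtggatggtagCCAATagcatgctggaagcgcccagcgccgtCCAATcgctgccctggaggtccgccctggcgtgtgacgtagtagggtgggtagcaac
Txnrd1, chr10:82858956-82859205, plus strand: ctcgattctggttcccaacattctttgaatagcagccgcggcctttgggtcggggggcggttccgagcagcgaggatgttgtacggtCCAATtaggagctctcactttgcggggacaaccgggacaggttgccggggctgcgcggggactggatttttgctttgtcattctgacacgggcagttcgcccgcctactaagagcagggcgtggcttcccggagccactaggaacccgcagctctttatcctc
Ltbp1, chr17:75178531-75178780, plus strand: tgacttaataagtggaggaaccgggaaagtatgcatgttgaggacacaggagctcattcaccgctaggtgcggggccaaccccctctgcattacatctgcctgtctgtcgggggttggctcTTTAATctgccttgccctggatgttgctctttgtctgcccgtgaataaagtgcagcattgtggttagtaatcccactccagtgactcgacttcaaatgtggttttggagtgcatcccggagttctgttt
Runx1, chr16:92697330-92697579, minus strand: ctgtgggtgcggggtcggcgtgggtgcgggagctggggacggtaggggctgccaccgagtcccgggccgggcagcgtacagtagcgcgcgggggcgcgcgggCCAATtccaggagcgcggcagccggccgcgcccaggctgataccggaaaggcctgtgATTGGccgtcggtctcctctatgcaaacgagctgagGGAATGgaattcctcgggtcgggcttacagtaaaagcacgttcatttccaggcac
Rcan1, chr16:92400079-92400328, minus strand: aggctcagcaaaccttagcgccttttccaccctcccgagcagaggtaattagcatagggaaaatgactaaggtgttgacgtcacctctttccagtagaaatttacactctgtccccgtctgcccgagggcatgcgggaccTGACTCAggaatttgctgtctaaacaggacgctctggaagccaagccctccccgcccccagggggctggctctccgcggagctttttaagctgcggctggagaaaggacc
Srf, chr17:46556163-46556412, minus strand: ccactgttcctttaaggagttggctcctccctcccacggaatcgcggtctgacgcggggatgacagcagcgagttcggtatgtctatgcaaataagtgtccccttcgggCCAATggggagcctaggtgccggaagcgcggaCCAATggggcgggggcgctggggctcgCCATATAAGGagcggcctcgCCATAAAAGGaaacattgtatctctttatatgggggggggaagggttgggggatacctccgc
Palld, chr8:61591140-61591389, minus strand: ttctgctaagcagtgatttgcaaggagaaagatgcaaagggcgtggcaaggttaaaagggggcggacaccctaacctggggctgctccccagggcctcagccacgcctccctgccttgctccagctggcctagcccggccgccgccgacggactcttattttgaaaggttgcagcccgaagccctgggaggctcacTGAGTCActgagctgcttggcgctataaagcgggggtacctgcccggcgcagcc
Cald1, chr6:34709194-34709443, plus strand: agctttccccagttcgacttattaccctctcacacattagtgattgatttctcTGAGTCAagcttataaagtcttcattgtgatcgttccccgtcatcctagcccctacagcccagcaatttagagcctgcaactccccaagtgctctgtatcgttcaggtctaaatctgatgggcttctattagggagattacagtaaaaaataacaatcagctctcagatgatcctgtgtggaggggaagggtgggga

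The inner start of Srf, the gene of serum response factor itself, lay 2.11 kb into the gene and had 2 CArG boxes, 82 and 62 bases before the start, with CCAAT 141 and 109 bases before it. Its region (chromosome 17, 46555982 to 46556708) had a modest fold enrichment. Fold is the caller's ratio of tags at the summit to the local background, with the same constant added to both. The constant weighs more where tags and background are few. That background was 3.88 to 4.70 times the median of gene-body regions in the same library. Which start of Srf is mainly used was not tested. Values are listed by replicate number, the 3 control libraries first. The Srf folds were 7.34, 7.60 and 5.37 in control and 7.28, 6.09 and 7.68 in knockdown libraries, so the groups overlapped. Rfx1, a winged-helix factor, had the best supported region with an inner start, with CCAAT 88 and 57 bases before it. That region (chromosome 8, 84066286 to 84067101) had folds of 13.9, 13.8 and 14.0 in control and 14.2, 15.9 and 14.3 in knockdown libraries. These did not overlap on the fold scale, but did by rank within the library. The Txnrd1 region, in the gene of thioredoxin reductase, ranged from 10.6 to 13.2 over the 6 libraries.

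Rcan1, a regulator of calcineurin, carried an AP-1 match 110 bases before its inner start, which lay 66.1 kb into the gene. Its folds were 10.3, 9.40 and 10.9 in control and 10.4, 10.6 and 9.63 in knockdown libraries, a narrow spread in which the groups overlapped. The inner starts of Palld (palladin, an actin-bundling protein) and Cald1 (caldesmon, an actin-binding protein of smooth muscle) also had an AP-1 match, 54 and 197 bases before the start. The Palld region ranged from 7.69 to 12.5 and the Cald1 region from 4.38 to 8.34. Runx1, a transcription factor with a long-known second promoter, had a TEAD match 55 bases before its inner start and CCAAT 148 and 91 bases before it. Its region ranged from 6.55 to 9.65. Ltbp1, which binds latent TGF-beta in the matrix, had the Arid3a letters once, 129 bases before the inner start, and its region ranged from 7.59 to 13.1.

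The windows of starts inside these regions held a median of 19.5 CpG dinucleotides and 61.0% G and C. The 2364 inner starts that lay in no region of any library held a median of 5 and 51.0%, and all 32851 annotated starts held 7 and 52.7%. The middle 50% of windows ran from 12 to 28 CpG in the constitutive regions and from 3 to 9 in no region, so these ranges did not overlap. Inner starts in gene-body regions of 1 to 5 libraries fell between, at a median of 16. The 325 inner starts in gene-end regions held more, a median of 23 CpG and 63.0% G and C.

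**Figure D1:**
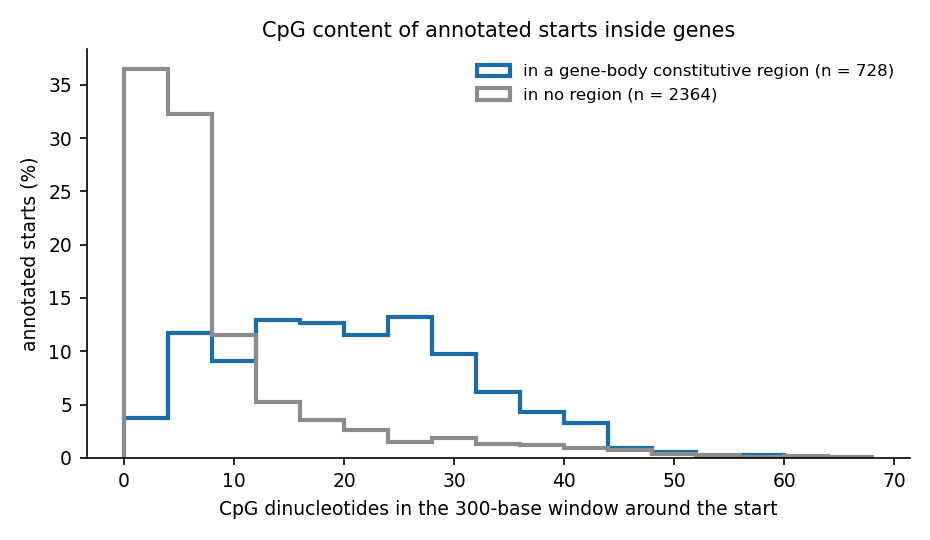
Number of CpG dinucleotides (x axis) in the 300-base window around annotated starts inside genes, as a percentage of starts (y axis, in bins of 4). The blue line, 728 starts in constitutive regions, lies mostly to the right of the grey line, 2364 starts in no region, with medians of 19.5 and 5.

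The same windows were searched for 8 motifs on both strands. AP-1 letters were present in 7.14% of windows in constitutive regions, 4.40% of those in no region and 5.20% of all annotated starts. The E-box CACGTG was present in 8.79%, 4.82% and 7.15%, and CCAAT in 38.3%, 34.3% and 37.4%. For 4 motifs the share was lower in constitutive regions than in no region. ATTAAA was present in 5.77% of windows in constitutive regions, 14.7% of those in no region and 13.9% of all starts. The shares for CATTCC were 12.5%, 17.1% and 14.7%. CAGATG was present in 10.9%, 17.8% and 17.2%, and CAGCTG in 15.7%, 19.8% and 16.3%. The CArG box was about equally frequent at 1.79%, 1.82% and 1.63%. Inner starts in gene-body regions of 1 to 5 libraries had AP-1 letters in 6.79%, CACGTG in 7.90% and ATTAAA in 8.21% of windows. For inner starts in gene-end regions these shares were 4.31%, 10.8% and 2.15%. Base composition differed between the sets of windows as given above, and its part in these shares was not tested.

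A region with an inner start had a lower but wider peak than a region without one. In the 6 libraries, the median fold of the 626 regions with a start was 8.12 ± 0.986 (SD, n = 6 libraries), against 8.64 ± 1.12 for the 6723 others. The difference of −0.519 had the same sign in 6 of 6 libraries (exact two-sided sign-flip permutation test over libraries, p = 0.03125, the smallest that 6 libraries allow, and also 0.03125 adjusted over the 2 measures). Median peak width was 535 ± 48.8 bases with a start and 414 ± 26.8 without, wider by 120.5 bases and in the same direction in 6 of 6 libraries (same exact test, p = 0.03125). A wide region reaches an annotated window more readily than a narrow one, and the part of this in the difference was not tested.

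Mature miRNAs offered a second kind of named element. Of 1005 miRNA hairpins of the RefSeq table, 17 lay within 1000 bases of 18 constitutive regions inside genes. The miR-199a family, which is abundant in cells of mesenchymal origin, was found at both of its loci. Mir199a-2 lies in Dnm3 on the opposite strand and its hairpin (chromosome 1, 162217814 to 162217923) overlapped a region. Mir199a-1 lies in Dnm2, also on the opposite strand, 72 bases from a region (chromosome 9, 21496636 to 21498009). Both loci encode the same mature miRNAs. Mir139 lies in Pde2a, a phosphodiesterase gene, 356 bases from a region. Capitals mark the seed, bases 2 to 8, through which a miRNA pairs with its targets, and the 4 seeds differ.
miR-199a-5p: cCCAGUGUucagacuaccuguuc
miR-199a-3p: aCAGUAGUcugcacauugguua
miR-139-5p: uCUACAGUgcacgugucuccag
miR-139-3p: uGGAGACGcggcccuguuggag

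Fold at the Mir199a-2 region was 9.98, 5.67 and 8.07 in control and 8.93, 11.4 and 8.18 in knockdown libraries. At Mir199a-1 it was 9.87, 5.51 and 5.87 in control and 5.98, 7.20 and 6.59 in knockdown libraries. The groups overlapped at both loci. The Mir139 region was higher in every control library by rank, as described for such regions below, with folds of 8.34, 6.33 and 9.03 against 7.01, 6.85 and 6.76. On the fold scale itself its groups overlapped.

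The 6 lists differed in length, and control replicate 2 and knockdown replicate 3 had the shortest. They held 33248 to 52091 peaks, of which 7433 to 7540 fell in the regions described here. These were 14.3% to 22.4% of a library's peaks, with the highest share in control replicate 2. Sequencing depth was not among the values used here, but the caller's fold and p-value together fix the number of tags at a summit. The median summit in these regions held 10 to 19 tags per library, so a value of a single peak rests on few tags. The weakest peak of a region, by the caller's −log10 q, came from control replicate 2 in 62.4% of regions and from knockdown replicate 3 in 25.2%. Marker genes were checked by regions over their starts. The start was open in all libraries for 6 of 15 contractile genes with a known strand (Acta2, Tpm1, Tpm2, Cald1, Smtn and Ppp1r12b), for 0 of 6 endothelial, 0 of 7 epithelial and 0 of 11 cardiac and skeletal muscle markers, and for 1 of 7 leukocyte (Fcer1g), 1 of 5 neural (Dlg2) and 1 of 6 fibroblast markers (Twist2). Among the contractile genes without such a start were Cnn1, Lmod1, Des and Mylk, and the starts of Myh11 and Tagln could not be placed by strand. Over all protein-coding genes with a strand the share was 35.5%.

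Fold differed between libraries, and so did the number of tags at a summit. Merged width had a median of 608 bases and ranged from 240 to 2115. The median fold per library was 9.25, 6.76 and 9.15 in control and 9.33, 9.42 and 7.62 in knockdown libraries, lowest in the libraries with the shortest lists. Median tags were also lowest there, at 10 in control replicate 2 and 13 in knockdown replicate 3, against 18 or 19 in each other library. The part of tag number in these folds was not tested. Summits of the 6 libraries fell within a median of 125 bases of each other in a region. That median was also 125 bases between genes, and 180 bases at gene ends, where regions were wider. The fold of a region correlated between libraries with a Spearman coefficient of 0.605 to 0.739 over the 7349 regions, a description across regions that are not independent. The median was 0.623 for pairs of control libraries, 0.690 for pairs of knockdown libraries and 0.673 for pairs across groups. Every pair with control replicate 2 lay between 0.605 and 0.623. Control replicates 1 and 3 gave 0.738, close to the highest knockdown pair at 0.739.

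Presence in 5 libraries in place of 6 gave a further 3800 gene-body regions, just outside the rule. The missing library was control replicate 2 in 59.6% of them and knockdown replicate 3 in 22.7%, and each other library in 3.89% to 4.87%. Their median fold was 6.72, against 8.60 in the regions kept. At the gene-end window, the regions just inside the rule lay 1001 bases from a gene end in Rnf145, 1006 in Fcrlb and 1007 in Nr1d1, with median folds of 8.01, 11.5 and 4.85. Those just outside lay 998 bases from a gene end at Ppt2, and 996 at Kdm6b and Rpl38, with median folds of 7.08, 9.74 and 6.10.

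Compared with constitutive regions at gene ends, those inside genes had narrower peaks of about the same fold. Median peak width was 422.5 ± 28.3 bases (SD, n = 6 libraries) inside genes and 562 ± 49.5 at gene ends. The difference was −140 ± 21.6 bases and negative in 6 of 6 libraries (exact two-sided sign-flip permutation test, p = 0.03125, 0.0417 adjusted over 4 comparisons by Benjamini-Hochberg). Median fold was 8.59 ± 1.12 inside genes and 8.55 ± 1.02 at gene ends. That difference of 0.0342 ± 0.135 was positive in 4 of 6 libraries, ran from −0.224 to 0.134, and did not pass (same exact test, p = 0.5625, also 0.5625 adjusted). Its sign turned with the settings. It was −0.105 without control replicate 2, and −0.206 where peaks had to cover 50% of a region (same exact test, adjusted p = 0.03125). A wide region touches a gene-end window more readily than a narrow one, and the part of this in the difference of width was not tested.

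Against constitutive regions between genes, the regions inside genes were slightly lower and slightly wider. Their median fold was 8.59 ± 1.12 against 8.74 ± 1.16, a difference of −0.151 ± 0.0434 and negative in 6 of 6 libraries. Median width was 422.5 ± 28.3 against 412 ± 26.4 bases, a difference of 10.8 ± 2.48 bases and positive in 6 of 6. Both passed the exact sign-flip permutation test over libraries (p = 0.03125, 0.0417 adjusted). The local background at the summit, as a multiple of the gene-body median in the same library, was 0.862 to 0.885 between genes and 1.07 to 1.14 at gene ends.

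**Figure D2:**
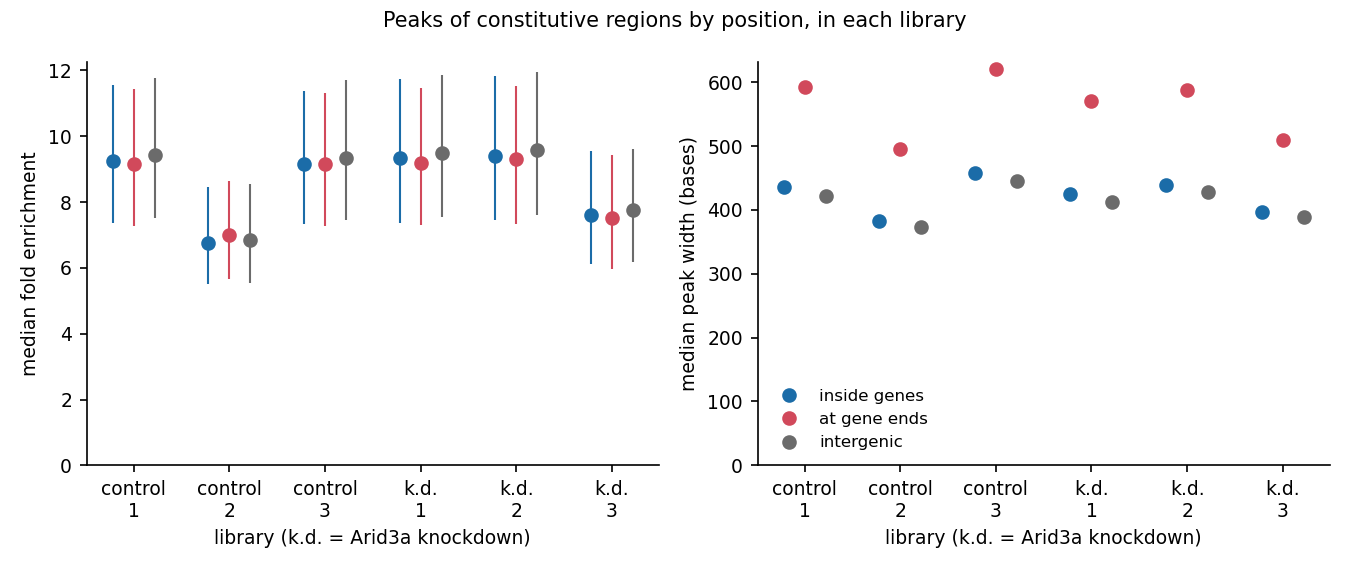
Median fold enrichment (left, lines span the middle 50% of regions) and median peak width in bases (right) of constitutive regions inside genes (blue), at gene ends (red) and between genes (grey), per library. Peaks inside genes are narrower than those at gene ends in all 6 libraries, while the medians of fold lie close together within each library.

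The makeup of regions changed with the number of libraries that shared them. Gene-body regions were 46.5% of the 28560 regions seen in 1 library, 45.8% of those in 3, 42.0% of those in 5 and 35.4% of those in 6. Intergenic regions fell as well, from 44.1% of regions in 1 library to 30.8% of those in 6. Gene-end regions went the other way, from 9.43% of regions in 1 library to 33.8% of those in 6. Among gene-body regions, 5.21% lay within 1000 bases of the end of a non-coding gene or pseudogene, against 12.5% of intergenic constitutive regions. The ends concerned were mostly of long non-coding RNAs, at 4.22% and 9.97%.

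The 12 best supported regions, by the smallest −log10 q over the 6 libraries and with 1 region per gene, lay in Sfi1, Zc3h7a, Smurf1, Fmn1, Frmd6, Mitf, Trpm6, Camk1d, Rere, Zmiz1, Wdr70 and Cyb5r3. Their known roles are mixed. Smurf1 is a ubiquitin ligase for SMAD proteins, Fmn1 is an actin-assembling formin, Frmd6 acts in the Hippo pathway and Camk1d is a calmodulin-dependent kinase. These values were used in the ranking and are a description.

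Zc3h7a, an RNA-binding zinc finger gene, had the highest folds of the 12. They were 35.5, 19.6 and 33.9 in control and 37.7, 36.1 and 23.6 in knockdown libraries, lowest in control replicate 2 and knockdown replicate 3, with groups that overlapped. Its region spans chromosome 16, 11143917 to 11144300. The region in Mitf, a helix-loop-helix factor (chromosome 6, 97952860 to 97953246), followed with 22.2, 18.0 and 21.9 in control and 23.6, 22.1 and 19.1 in knockdown libraries. The Smurf1 region (chromosome 5, 144898418 to 144899064) had 14.1, 16.4 and 15.2 in control and 16.8, 16.4 and 17.2 in knockdown libraries. At 16.4 the highest control value and the lowest knockdown value nearly met, and the spread was narrow, at 16.0 ± 1.16 (SD, n = 6). By rank the groups overlapped.

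Sfi1, which encodes a centrin-binding protein of the centrosome, had by far the smallest q. Its lowest −log10 q was 108, against 39.3 for the next gene. The region (chromosome 11, 3192984 to 3193724) reached 133 to 230 tags at its summit. The local background there was 9.22 to 10.8 times the median of gene-body regions in the same library. Its folds were 19.2, 17.9 and 18.8 in control and 19.8, 17.6 and 16.0 in knockdown libraries. The part of the high background in its rank was not tested. The Wdr70 region had folds of 13.4, 12.8 and 15.1 in control and 19.97, 16.9 and 16.2 in knockdown libraries, without overlap on the fold scale. The Frmd6 region, at 15.6, 14.4 and 16.3 against 17.2, 17.0 and 17.1, did not overlap either. By rank within the library, both overlapped. The other 6 of the 12 lay between 11.1 and 21.2 in fold.

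**Figure D3:**
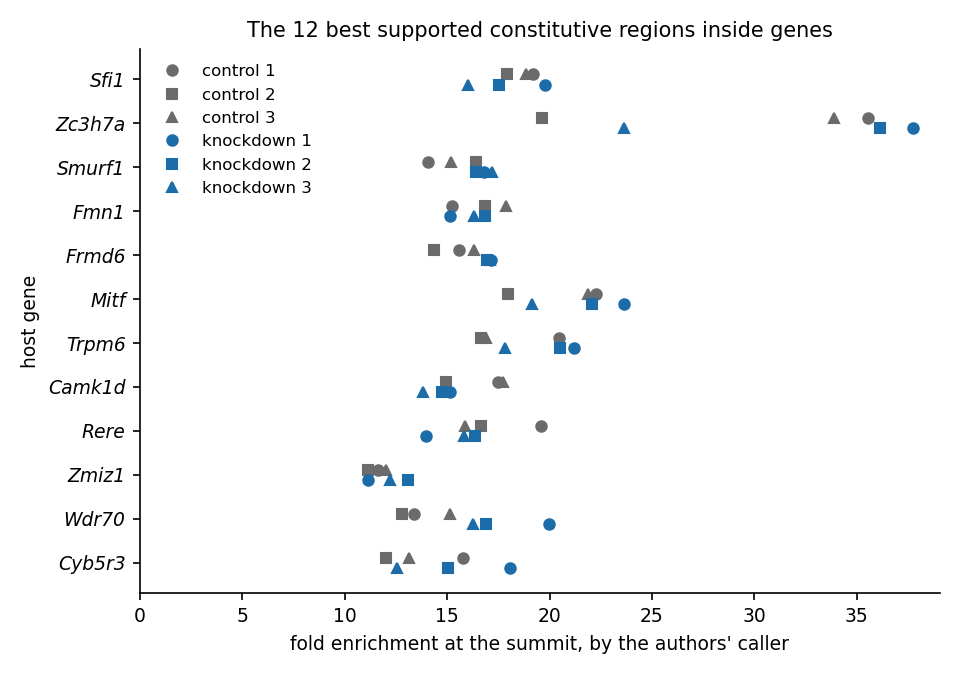
Fold enrichment (x axis, linear) of the 12 best supported regions inside genes, named by host gene, in each of 3 control (grey) and 3 knockdown (blue) libraries. Zc3h7a reaches 37.7 and is the most spread, and the Sfi1 values lie between 16.0 and 19.8.

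The weakest of the 7349 regions lay in Slc6a4, Gse1, Adk, Cap2 and Enox1. In each, the smallest −log10 q was 1.31 and came from knockdown replicate 3, at folds of 2.67 to 3.06 and 2 or 3 tags. The region in Slc6a4, the serotonin transporter gene, had 8.62, 4.20 and 6.44 in control and 8.95, 7.79 and 3.03 in knockdown libraries. A region can thus be counted as open in 6 libraries with 1 peak at the edge of the caller's list.

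The regions lay in 3979 genes, 18.2% of the 21887 protein-coding genes. Of the 7349, 7281 had a single host gene and 68 lay in overlapping genes. There were 2483 genes with 1 region, 1224 with 2 to 4, 242 with 5 to 9 and 30 with 10 or more. Genes with 5 or more held 1820 of the regions, or 24.8%.

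Foxp1, which encodes a forkhead transcription factor, held the most, with 23 regions in 597 kb. Its best supported region (chromosome 6, 99057040 to 99057679) lay 465 kb from the gene start and had folds of 15.9, 14.4 and 13.0 in control and 15.1, 15.8 and 15.1 in knockdown libraries. Ltbp1 held 15. Cacna1c, the pore subunit of the L-type calcium channel through which calcium enters smooth muscle cells, held 14, as did Ctif, Nsmce2 and Pakap. Creb5, Sox5 and Stard13 held 13 each and Maml3 held 12. Creb5 and Sox5 encode transcription factors. The best supported Cacna1c region (chromosome 6, 118954964 to 118955702) had folds of 13.8, 12.8 and 14.6 in control and 18.8, 15.2 and 12.6 in knockdown libraries, and the groups overlapped. In the other 8 genes the best supported region ranged from 6.58 in Ctif to 17.6 in Pakap over all libraries.

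Number followed gene length. The 3979 host genes had a median length of 64.6 kb, the other genes 12.6 kb, and genes with 5 or more regions 227 kb. Over the 21887 genes, length and number of regions had a Spearman coefficient of 0.458, as a description. The share of genes with a region rose from 1.64% below 10 kb to 11.5% at 10 to 25 kb, 38.1% at 50 to 100 kb and 60.1% above 250 kb. Per length the order differed. There were 0.415 regions per 100 kb of gene below 10 kb, 0.905 at 100 to 250 kb and 0.424 above 250 kb. The rule removes 1000 bases at each end of a gene, which takes a larger part of a short gene.

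The share of genes with a region was also split by the state of the gene's start. A start was called open when a region of all 6 libraries touched the 1000 bases on either side of it, for the 17492 genes whose strand the promoter table gives. Above 250 kb, 108 of 130 genes with an open start held a region (83.1%), against 224 of 420 without (53.3%). At 100 to 250 kb the shares were 62.4% and 51.2%. The order was reversed at 10 to 25 kb (9.22% with an open start, 12.8% without) and at 25 to 50 kb (21.7% and 25.4%). Over all lengths, 40.3% of host genes and 34.5% of other genes had an open start. These shares are a description over genes, with no test.

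**Figure D4:**
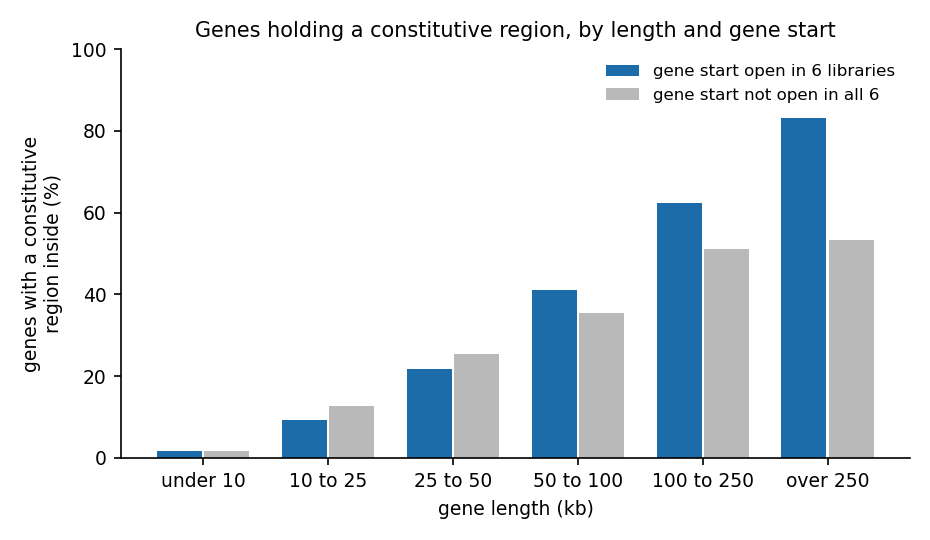
Share of protein-coding genes (y axis, %) that hold at least 1 constitutive region inside the gene, by gene length in kb (x axis), for genes whose start was open in all 6 libraries (blue) and other genes (grey). The share rises with length, and above 250 kb it is 83.1% against 53.3%.

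Along the gene, the regions leaned slightly to the start. Of 5695 regions with 1 host gene of known strand, 55.0% were nearer to the start than to the end, against 51.0% of 10234 gene-body regions seen in 1 library. Genes of 20 kb or more were split into 10 equal stretches. Stretch 3 from the start held the most, 11.7%, and stretch 10 the least, 7.60%, while for regions of 1 library the shares ran from 8.95% to 10.5%. In distance, 10.7% lay within 5 kb of the start and 24.3% more than 100 kb from it, against 8.69% and 28.1% of the regions seen in 1 library. Neighbouring regions in the same gene were a median of 20.1 kb apart, and 8.58% of the 3461 gaps were under 5 kb.

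Gene groups of smooth muscle biology were described by how many of their genes held a region, beside 18.2% of all genes and 0.708 regions per 100 kb over all genes. Group genes were mostly longer than the median gene of 17.2 kb, and the part of length in the counts was not tested. Among 18 contractile genes with a median length of 22.6 kb, 6 held 20 regions (33.3% of genes, 1.76 per 100 kb). Cald1 held 7, and Casq2 (calsequestrin, a calcium store protein), Ppp1r12b (a myosin phosphatase subunit), Synpo2 and Tpm1 (tropomyosin) held 3 each. Smtn, smoothelin, held 1. Acta2, Myh11, Tagln, Cnn1, Des and Mylk held none under this rule.

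The best supported contractile region lay in Synpo2, which encodes an actin-binding protein of the Z-disc (chromosome 3, 123122424 to 123123008). It had folds of 14.5, 14.0 and 16.7 in control and 16.2, 13.3 and 14.9 in knockdown libraries. The Cald1 region with the best support (chromosome 6, 34721647 to 34722084) had 11.6, 8.42 and 12.5 in control and 8.69, 9.40 and 10.5 in knockdown libraries. That of Ppp1r12b had 19.8, 6.84 and 17.8 against 16.9, 13.8 and 9.06. It was lowest in the libraries with the shortest lists, and the groups of all 3 overlapped.

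Genes that anchor actin at focal adhesions were a further group. Of 18, 13 held 53 regions (72.2% of genes, 2.12 per 100 kb, median length 82.2 kb). Tns1, a tensin that links actin to integrins, held 10, Lpp, a LIM protein of smooth muscle adhesions, held 9 and Filip1l held 6. The Filip1l region (chromosome 16, 57391378 to 57391674) was among the strongest of any group, with folds of 25.7, 14.8 and 26.3 in control and 26.7, 29.4 and 15.5 in knockdown libraries. Flna, Ilk, Tln1, Vcl and Zyx held none. Of 18 integrins and cadherins, 12 held 30 regions (66.7%, 0.925 per 100 kb). Itgb5, an integrin chain, and Cdh2, N-cadherin, held 6 each.

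Of 22 transcriptional regulators of smooth muscle, 14 held 43 regions (63.6%, 1.88 per 100 kb). Runx1 and Runx2, the latter a driver of bone programmes in calcifying vessels, held 8 each, and Mrtfa, a cofactor of serum response factor, held 7. Myocd (myocardin) and Srf held 2 each, while Klf4, Gata6, Tcf21 and Mef2c held none. The best supported Runx2 region (chromosome 17, 44500240 to 44500972) had folds of 18.4, 13.4 and 18.8 in control and 16.3, 19.0 and 13.7 in knockdown libraries. For Runx1 (chromosome 16, 92609302 to 92609964) the folds were 12.2, 13.2 and 10.3 in control and 13.5, 14.0 and 13.6 in knockdown libraries, each knockdown value above each control value on the fold scale. By rank within the library these groups overlapped.

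The TGF-beta pathway, which drives matrix production and contractile differentiation, had 46 regions in 12 of 20 genes (60.0%, 2.77 per 100 kb, the highest density of the 23 groups). Ordered by role, the ligand store came first, with 15 regions in Ltbp1, 4 in Ltbp2 and 1 in Ltbp3. Of ligands, Tgfb1 held 1 while Tgfb2 and Tgfb3 held none. Of receptors, Tgfbr3 held 4, Tgfbr2 and Eng held 1 each, and Tgfbr1, Acvrl1, Bmpr1a and Bmpr2 none. Of signal carriers, Smad3 held 10 in 111 kb while Smad2 and Smad4 held none. Of inhibitors, Ski and Smad6 held 3 each, Smad7 held 2 and Skil 1.

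The Tgfbr2 region (chromosome 9, 116152827 to 116153392) had folds of 18.1, 10.2 and 14.1 in control and 17.5, 15.1 and 9.84 in knockdown libraries. The best supported region of Smad3 (chromosome 9, 63678196 to 63678581) had 9.09, 7.01 and 8.52 in control and 10.9, 9.35 and 7.64 in knockdown libraries. That of Ltbp1 had 11.4, 9.08 and 9.80 against 11.97, 11.4 and 10.2. The groups overlapped in all 3 genes.

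In the Notch pathway, 8 of 16 genes held 28 regions (2.14 per 100 kb). The coactivators Maml3, Maml2 and Maml1 held 12, 4 and 1, and the DNA-binding Rbpj held 3. Of receptors, Notch2 held 5, and Notch1 and Notch3 1 each. Of ligands, Jag1 held 1 and Dll1, Dll4 and Jag2 none. The target genes Hes1, Hey1, Hey2 and Heyl, which are short, held none. The best supported Maml3 region (chromosome 3, 51943630 to 51944212) was even across libraries, at 15.6, 13.0 and 16.3 in control and 15.7, 15.1 and 14.8 in knockdown libraries.

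Of 16 Wnt pathway genes, 7 held 15 regions (0.916 per 100 kb), led by the formin Daam1 with 4, and no Frizzled receptor of the group held one. Of 14 growth factor receptors, 10 held 28 (1.37 per 100 kb). Ddr2, a collagen receptor, and Met, the hepatocyte growth factor receptor, held 5 each and Egfr 4, while Pdgfra and Pdgfrb held 2 each. Met (chromosome 6, 17549570 to 17550049) had folds of 12.9, 10.05 and 11.96 in control and 11.4, 15.1 and 12.9 in knockdown libraries.

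Matrix genes were read in 3 lists. Of 18 collagen and synthetic matrix genes, 8 held 15 regions (1.16 per 100 kb), 6 of them in Col4a2, a basement membrane collagen. Col3a1, Fn1, Spp1 and Tnc held none. Of 14 elastic fibre genes, 7 held 18 (2.14 per 100 kb), with 7 in Fbn1, fibrillin-1, and 3 in Fbln1, while Eln, elastin, held none. The Fbn1 region with the best support (chromosome 2, 125303921 to 125304406) had folds of 11.3, 9.23 and 10.5 in control and 13.7, 11.8 and 10.3 in knockdown libraries. Of 18 matrix proteases and inhibitors, 6 held 17 (1.27 per 100 kb). The metalloprotease genes of the Mmp family in the group, Mmp2, Mmp3, Mmp9, Mmp13, Mmp14 and Mmp19, held none.

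Inflammation genes and AP-1 genes were short and held few. Of 21 inflammation genes, 6 held 9 regions (1.81 per 100 kb, median length 12.8 kb), 3 of them in Nfkb1, a subunit of NF-kappaB. Cytokine genes such as Il6 and Ccl2 held none. Of 12 AP-1 genes, Batf, Fosb and Mafk held 1 each (2.55 per 100 kb). Of 14 ARID genes, 7 held 18 (1.25 per 100 kb). Arid1b and Arid1a, subunits of a SWI/SNF chromatin remodelling complex, held 8 and 3. The best supported Arid1b region (chromosome 17, 5138668 to 5139200) had folds of 17.7, 13.1 and 16.2 in control and 17.3, 18.4 and 16.8 in knockdown libraries.

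Arid3a itself held 2 regions in its 28.0 kb on chromosome 10. The first (79934276 to 79934781) had folds of 9.27, 5.30 and 8.04 in control and 5.97, 6.67 and 6.38 in knockdown libraries. The second (79936754 to 79937481) had 5.88, 6.09 and 7.65 in control and 7.75, 9.17 and 6.01 in knockdown libraries. The groups overlapped in both, on the fold scale and by rank within the library. Mean fold was 7.54 in control and 6.34 in knockdown in the first, and 6.54 and 7.64 in the second. These means differed in opposite directions, but fold is scaled within a library, so they only describe.

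Genes of axon guidance, many of them long, were often hosts. Of 18, 14 held 38 regions (77.8%), but at a median length of 259 kb this was 0.570 per 100 kb, below the value of all genes. Slit3 held 8, and Plxna2 and Sema5a 5 each. Of 12 housekeeping genes, Ywhaz held 3 and Tbp 1. At a median length of 9.72 kb this was 2.36 per 100 kb, above the 1.76 of the contractile genes. Among genes that mark other cell types, neural genes were long and thinly marked, with 13 regions in 6 of 12 (0.127 per 100 kb). Endothelial genes had 5 regions in 4 of 12 (Vwf, Cdh5, Pecam1 and Tek), leukocyte genes 2 in 2 of 12, epithelial genes 1 in 1 of 12 (Cdh1), and fibroblast genes 11 in 5 of 12. Per 100 kb these were 0.636, 0.424, 0.322 and 1.75, the last close to the value of the contractile genes. No cardiac or skeletal muscle marker held any. The Pecam1 region was weak, at 4.60, 6.42 and 5.10 in control and 6.76, 5.52 and 5.23 in knockdown libraries.

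The comparison of control with knockdown libraries asks whether these shared regions change in strength. Fold is scaled within a library, so each of the 20742 constitutive regions was ranked by fold within each library, from 0 to 100 points. A region was counted when all 3 ranks of a group lay above all 3 of the other. Of the 7349 gene-body regions, 358 (4.87%) were higher in control, beside 4.97% of all constitutive regions. In the other direction, 415 (5.65%) were higher in knockdown, beside 4.99%. Both shares lie near the background. At gene ends the shares were 5.41% higher in control and 3.77% higher in knockdown, and between genes 4.60% and 5.56%. The median difference in mean rank, knockdown minus control, was 0.50 points over the gene-body regions and −0.0341 over all constitutive regions, while 5% of the gene-body regions lay below −21.7 and 5% above 23.3. With 3 libraries against 3, the smallest p of a single region is 0.1, so none was tested.

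The largest gap was in Cacna1d, the gene of another L-type calcium channel subunit (chromosome 14, 30136934 to 30137493). Its folds were 11.98, 7.25 and 11.9 in control and 4.69, 5.63 and 3.94 in knockdown libraries, with a gap of 50.1 rank points between the groups. All control values were above all knockdown values, and the summits held 4 to 18 tags. Abcc4, an exporter of cyclic nucleotides (chromosome 14, 118635410 to 118636081), had 11.5, 6.95 and 10.7 in control and 5.08, 5.91 and 5.40 in knockdown libraries, a gap of 36.5 points. Eps8l3, Trim14 and Cyth3 followed with gaps of 35.4, 30.7 and 30.0 points.

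In the other direction, Zhx2, a zinc finger and homeobox repressor gene (chromosome 15, 57708219 to 57708613), had 6.79, 4.03 and 7.21 in control and 10.3, 11.4 and 10.5 in knockdown libraries, a gap of 38.3 points. The knockdown values were all above the control values, at 6 to 31 tags. Mafg, a small Maf factor that pairs with AP-1 and related proteins (chromosome 11, 120630137 to 120631094), had 6.16, 4.81 and 6.90 in control and 9.60, 11.4 and 9.17 in knockdown libraries, a gap of 34.1 points. Tmem120b, Erc2 and Abca8a had gaps of 37.1, 34.2 and 31.5 points. These 10 regions were chosen for their gap, so their values are a description.

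**Figure D5:**
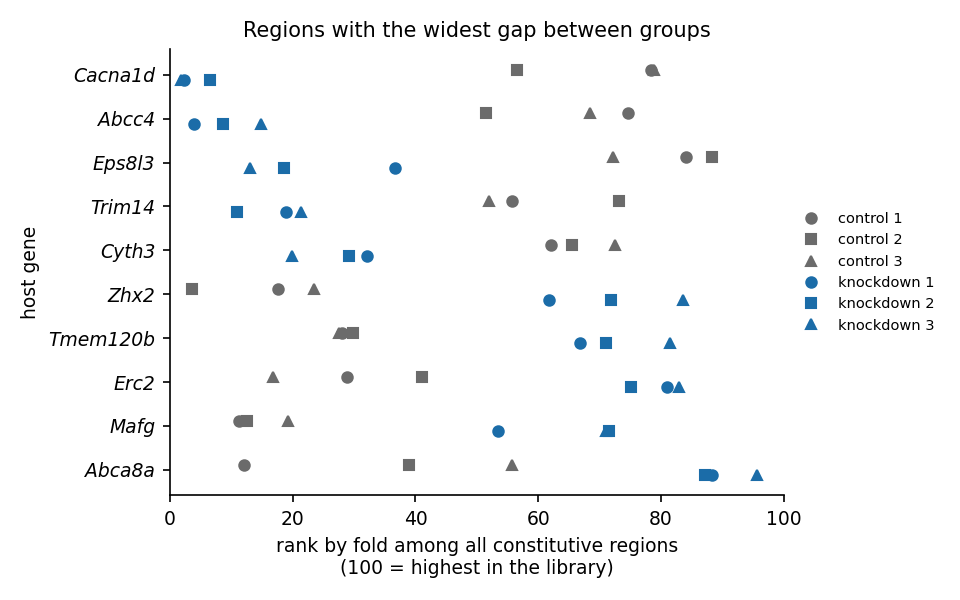
Rank by fold within each library (x axis, 0 to 100 points among the 20742 constitutive regions) of the 10 gene-body regions with the widest gap between groups, named by host gene. In the upper 5, from Cacna1d to Cyth3, the control libraries (grey) rank above the knockdown libraries (blue), and in the lower 5 the order is opposite.

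Within the gene groups, 457 regions lay in at least 1 of the 358 listed genes. Of these, 25 (5.47%) were higher in control and 31 (6.78%) higher in knockdown without overlap. The same shares were 4.87% and 5.65% over all gene-body regions, and 4.97% and 4.99% over all constitutive regions. The actin-anchoring genes had 0 and 4 of 53, matrix proteases 3 and 0 of 17, smooth muscle regulators 3 and 6 of 43 and contractile genes 1 and 1 of 20. Lrp6, a Wnt coreceptor, had the widest gap of the listed genes at 30.2 points (chromosome 6, 134450693 to 134451081). Its folds were 7.91, 3.99 and 7.19 in control and 14.8, 10.5 and 11.1 in knockdown libraries. The summits held only 4 to 25 tags, the smallest −log10 q was 2.60, and the region was named for its gap. Smtn had 7.95, 6.97 and 4.68 in control and 9.78, 10.3 and 8.59 in knockdown libraries. In Mrtfa 1 region was higher in control and another in knockdown libraries. Counts this small in a group were not tested.

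With 3 libraries in each group no difference between the groups could reach a p below 0.1. The share of peaks lying in gene-body constitutive regions was 17.1% ± 4.55 (SD, n = 3) in control and 15.8% ± 1.83 (n = 3) in knockdown libraries (exact two-sided permutation test over 20 relabellings, p = 1, adjusted p = 1). The difference of −1.26 points turned to 1.76 without control replicate 2. The rule requires a peak from every library in each region, so 7433 to 7540 peaks per library fell there. The lists held 33248 to 52091 peaks, so the share mostly follows list length. Its test therefore compares list lengths and cannot show a change in these regions. The ratio of the median fold inside genes to that at gene ends was 1.01, 0.968 and 1.00 in control and 1.01 in each knockdown library. Its means were 0.993 ± 0.0222 and 1.01 ± 0.00197 (n = 3 each, exact permutation p = 0.1, the smallest possible, adjusted p = 0.2). The groups did not overlap, but the highest control value, 1.0105, nearly met the lowest knockdown value, 1.0107. Without control replicate 2 the difference of 0.0201 became 0.00527 (exact permutation p = 0.3).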

How the data were processed

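Per the submitters' processing notes, Bowtie2, Picard and MACS2 were used with build mm10. Versions, parameters, and whether duplicates were dropped or reads shifted to the Tn5 site are not stated in these notes. An absent shift would move summits by a few bases, and duplicates would raise tags. The authors deposited 1 peak list per library, called separately. For each deposited peak the authors' caller gave a fold enrichment (a ratio to local background), a −log10 p-value, a −log10 q-value and a score, which equalled 10 times the −log10 q cut to a whole number for 99.99% of peaks. Fold is the authors' value, scaled within a library, and served to describe, rank or compare classes inside a library.

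Deposited peaks were filtered by chromosome only, so any in repeated or artefact-prone sequence were kept. Peaks were merged, and each library's highest peak stood for it in a region. Gene positions, annotated starts (strand and sequence) and miRNAs came from RefSeq tables of GRCm38.p6. Tags at a summit were recovered as the whole number from 1 to 600 whose Poisson −log10 p matched the deposited value within 0.001. Fold was taken for this as tags plus 1 over background plus 1. Medians were compared inside libraries by exact sign-flip tests (64 sign patterns) and between groups by exact permutation tests. The tests were checked on simulated data. Python 3.11.15, numpy 2.4.6, pandas 2.3.3, scipy 1.17.1 and matplotlib 3.10.9 were used.

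Named regions were the 12 best supported, the best in the 10 genes with most regions, the 3 genes with most regions per group, the 5 widest rank gaps in each direction, the 3 on each side of the window, the 5 weakest, and Arid3a. Other named genes were chosen after their values were seen. The regions and gene lists were chosen with earlier results of these data known. A motif search was planned for whole regions but run only on the RefSeq start windows, and the CCAAT and ATTAAA searches were added to it. The results of 1 of the 23 gene lists are not reported here, though its regions are in the totals over all lists.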

Additional observations from a re-analysis of the deposited data

How the results depend on the processing

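The narrower width inside genes than at gene ends, and the lower fold and greater width than between genes, kept their direction under each of the 14 alternatives tried. With 5 libraries the smallest exact p is 0.0625, so each of these lost its call whenever a library was left out. Leaving out 1 library gave width differences of −156 to −136 bases against gene ends and 9.40 to 11 bases against intergenic regions, and fold differences of −0.164 to −0.141 against intergenic regions. With the 4 libraries of the longest lists, an alternative chosen after seeing the data, they were −169, 9.25 and −0.118 (smallest p 0.125). The fold difference from gene ends had no stable sign. It was −0.206 where peaks had to cover 50% of a region (adjusted p = 0.03125, exact sign-flip permutation test), −0.0404 with windows of 500 bases, −0.221 with the 4 longest lists, and −0.105 to 0.00756 with 1 library left out. The number of gene-body regions was 4786 at a −log10 q of 5 or more, 4228 at 50% cover, 11759 with the 4 longest lists and 7500 to 9616 with 1 library left out, fewer libraries being required. Placing regions by their median summit gave the same number by construction, since no region kept can span a gene end. Rank counts higher in control and in knockdown were 215 and 276 at the stricter q, 193 and 234 at 50% cover, 1972 and 2087 with the 4 longest lists, and 690 to 975 and 803 to 1048 with 1 library left out. With the 4 longest lists these were 16.8% and 17.7% of the gene-body regions, beside 17.0% and 17.2% of all constitutive regions. At the stricter q the shares were 4.49% and 5.77%, beside 4.87% and 5.03%, and at 50% cover 4.56% and 5.53%, beside 5.09% and 4.77%. With 1 library left out they were 9.2% to 10.1% and 10.7% to 11.4%, beside 9.69% to 10.4% and 9.61% to 10.4%. The knockdown minus control difference in share of peaks was 0.0401 with lists of equal length, 0.452 with the 4 longest and −2.73 to 1.76 with 1 library left out, and the difference in fold ratio was 0.00527 to 0.0241 with 1 left out.

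With the replicate number as a block, the differences were −1.26 (exact sign-flip p = 1) and 0.0201 (p = 0.25, the smallest that 3 pairs allow). For libraries that share a number, deviations in rank from the group mean had correlations of 0.0350, −0.0707 and −0.0391 over the gene-body constitutive regions. Libraries of unlike number gave −0.0693 to 0.0918. With so few tags per summit, these values cannot tell whether libraries of the same number shared a culture or a day. Summits of 10 to 19 tags at the median limit what a single region can show.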

Other observations

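Gene-body regions were unevenly spread over chromosomes, from 72 on X to 630 on chromosome 2, and none lay on Y. Chromosome 11 held 587 and chromosome 16 held 216. The hairpin of Mir3109 lay in Anxa2, annexin A2, where it overlapped 1 region and was 574 bases from the next. The region that overlapped it (chromosome 9, 69456547 to 69457172) had folds of 5.55, 4.37 and 5.60 in control and 5.28, 4.06 and 3.39 in knockdown libraries, higher in control by rank. Its neighbour (69457605 to 69458507) had 5.88, 5.78 and 6.67 in control and 6.08, 5.76 and 6.74 in knockdown libraries. Srf held a further region (chromosome 17, 46552813 to 46553407), 420 bases from Mir6976, with folds of 6.64, 7.87 and 6.67 in control and 9.66, 7.97 and 6.78 in knockdown libraries. Nfatc1, a calcineurin-dependent factor, held a region higher in control (chromosome 18, 80655579 to 80656185; 8.88, 7.60 and 9.17 against 7.55, 7.43 and 6.97) and another higher in knockdown libraries by rank (80660283 to 80660943; 8.49, 6.42 and 9.07 against 9.40, 10.2 and 10.2).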
